A study of Mus musculus with 2 samples.

Results

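In old mouse calf muscle, 1209 annotated transcripts longer than 6000 nt were read along their whole chain of introns, or as an annotated single exon. They come from 1076 genes and make up 1209 of the 19381 annotated transcripts with reads. Membership needed a known gene, a known transcript, an annotated length above 6000 nt and at least 1 read in either library, with the SIRV and ERCC spike-in RNAs left out. The samples form 1 group with no second condition: 2 long-read RNA libraries, labelled biological replicates 2 and 1, from the gastrocnemius, a calf muscle, of B6CASTF1/J males. The mice were 18 to 20 months old, and each library started from 2 µg of RNA. B6CASTF1/J mice are first-generation hybrids of C57BL/6J and CAST/EiJ. The labels name a separate biosample for each library under the same donor entry, and the number of mice behind a library is not given in the sources used here, so the spread between the libraries may be technical. Replicate 2 held 1173233 reads and replicate 1 held 1509380. All 8 skeletal muscle marker genes were read, with 1041 to 205059 reads in replicate 2 and 1054 to 228292 in replicate 1. The heart and brain markers Nppa, Tnni3 and Snap25 were at 0 in both, liver Alb had 2 and 0 reads, and cardiac Myh6 had 15 and 0.

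A messenger RNA can be long because it encodes a large protein, such as a motor, a channel or a scaffold, or because it carries a long 3′ untranslated region (3′ UTR), the stretch after the stop codon to which RNA-binding proteins and microRNAs bind. Muscle makes many large filament and membrane proteins. Reverse transcription starts at the poly(A) tail and runs towards the 5′ end, so copies of long RNAs often lack their first exons. In the deposited tables a read counts for a known transcript when it carries every annotated intron of it. A read that carries only part of the chain is an incomplete splice match. The length given for a member is therefore the length of the annotated model, checked here to equal its summed exons for all 1209, and not the length of the reads. What a read of a spliced member must have covered is the stretch from the first to the last intron, called the inner exons below. A read can stop short of either outer end, and for single-exon members no minimum stretch is known. Read counts are given as counts, not divided by length, so their order is not an order of abundance. A count of 0 allows up to 3 reads, or 2.56 CPM (counts scaled to the library total) in replicate 2 and 1.99 CPM in replicate 1.

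The sequences that bear most on this set are its 3′ ends. In many members nearly all the length lies in 1 last exon, and other models with the same last junction ended far upstream of the annotated end. Shown are 30 nt around the poly(A) signal of 5 of the most read members, at the end most used by those other models and at the annotated end. The hexamer AATAAA is in capitals, the sequences come from the GENCODE M21 transcripts, and positions are on mm10.
Glo1-206 upstream end, chr17:30592868-30592897, minus strand: taggctgaAATAAAgctaacactgtttagt
Glo1-206 annotated end, chr17:30584936-30584965, minus strand: tcaattttatAATAAAatctattctccaaa
Slc25a12-206 upstream end, chr2:71274270-71274299, minus strand: gaatcaaaAATAAAagcacaccaaaatgtc
Slc25a12-206 annotated end, chr2:71271064-71271093, minus strand: catgtcttAATAAAagtttgtgctcaccaa
G3bp1-201 upstream end, chr11:55500124-55500153, plus strand: gctaactgAATAAAaggtggttgcagacct
G3bp1-201 annotated end, chr11:55504809-55504838, plus strand: ggtacctaccAATAAAtattcatggctgaa
Ppp2ca-201 upstream end, chr11:52122578-52122607, plus strand: ccgcagtgttttcatAATAAActtgagaac
Ppp2ca-201 annotated end, chr11:52127745-52127774, plus strand: ctgtactcAATAAActgtaaacaaatatac
Ppm1a-201 upstream end, chr12:72794529-72794558, plus strand: attttatcAATAAAgcttggtttaacaaac
Ppm1a-201 annotated end, chr12:72799790-72799819, plus strand: atcggtgccgaAATAAAgcaggcaagtgca
At Glo1-206 the last base of the hexamer was followed by 18 nt up to the upstream end and by 14 nt up to the annotated end. For the other members shown 9 to 22 nt followed it up to the upstream end and 13 to 20 nt up to the annotated end. These 5 were picked from the most read members because AATAAA lay near both ends. Among those not shown, Eif4g2-213 had ATTAAA at the upstream end alone, and Zfand5-205 and Pnpla8-201 had neither hexamer at either end. A hexamer is a description of the sequence and not a measured cleavage site.

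The lengths were concentrated just above the limit. The median member was 7151 nt long, 548 members were at most 7000 nt, and 129 were longer than 10000 nt. Just above the limit, members with at least 10 reads over both libraries included Tmem106b-201 (6002 nt, 32 reads in replicate 2 and 18 in replicate 1), Xpo1-202 (6004 nt, 22 and 11), Igfbp5-201 (6006 nt, 104 and 147), Myh1-202 (6012 nt, 327 and 63) and Myh4-201 (6016 nt, 1366 and 1158). Just below it, with as many reads, lay Nucks1-201 (5998 nt, 6 and 11), Gnb4-205 (5997 nt, 11 and 7), Satb1-211 (5993 nt, 26 and 25), Dcun1d3-201 (5985 nt, 6 and 8) and Nfatc3-201 (5984 nt, 19 and 8). A member had a median of 17 exons, with quartiles of 9 and 28 and a highest number of 93, against a median of 11 exons in known transcripts of over 3000 and up to 6000 nt. The members were mostly messenger RNAs: 1177 have the transcript type protein_coding, and 1181 carry an annotated coding sequence. In these the median coding sequence was 3123 nt and the median 3′ UTR 3884 nt, against 1845 and 1762 nt in the 3000 to 6000 nt class. The 3′ UTR was the longer of both in 56.1% of the members with a coding sequence and in 48.8% of that class.

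Recovery was high for few members and thin for most. Replicate 2 held 1103 members and replicate 1 held 946, although replicate 1 was the deeper library. Both libraries shared 840, or 69.5% (95% Clopper-Pearson interval 66.8% to 72.1%), while 263 were read only in replicate 2 and 106 only in replicate 1. The members seen in 1 library had at most 22 reads. Over both libraries 230 members rested on 1 read, the median was 6 reads, and 481 had at least 10. Of those 481, 478 were read in both libraries.

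Members took 31762 reads in replicate 2 and 19837 in replicate 1. That is 2.71% of all reads in replicate 2 (95% Clopper-Pearson interval 2.68% to 2.74%) and 1.31% in replicate 1 (1.30% to 1.33%), a mean of 2.01% ± 0.985 (SD, n = 2). The share was 2.06 times as large in replicate 2, far beyond counting error. Without the 11 members of striated muscle myosin heavy chain genes it was 1.93% in replicate 2 and 1.16% in replicate 1, a ratio of 1.66. These intervals cover counting error only, because copies of 1 molecule cannot be told from separate molecules.

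Set against the annotation, 1209 of the 4192 transcripts longer than 6000 nt were read in either library. For 6000 to 7000 nt the recovery was 31.0% in replicate 2 and 27.1% in replicate 1, for 7000 to 8000 nt 28.1% and 21.9%, for 8000 to 10000 nt 24.1% and 21.99%, and above 10000 nt 16.2% and 13.8%. Many of these transcripts belong to genes with few reads. In genes that had 20 or more reads in both libraries, recovery was 55.3% and 53.8% for 6000 to 7000 nt, 56.8% and 53.1% for 7000 to 8000 nt, 54.5% and 52.8% for 8000 to 10000 nt, and 40.8% in each library above 10000 nt. The values between 5000 and 6000 nt were 60.5% and 56.9%, and the 95% Clopper-Pearson interval of the longest class in replicate 2, 31.0% to 51.2% over 98 transcripts, lay below that of the 5000 to 6000 nt class, 56.3% to 64.5%, and overlapped that of the 6000 to 7000 nt class, 49.9% to 60.6%.

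**Figure D1:**
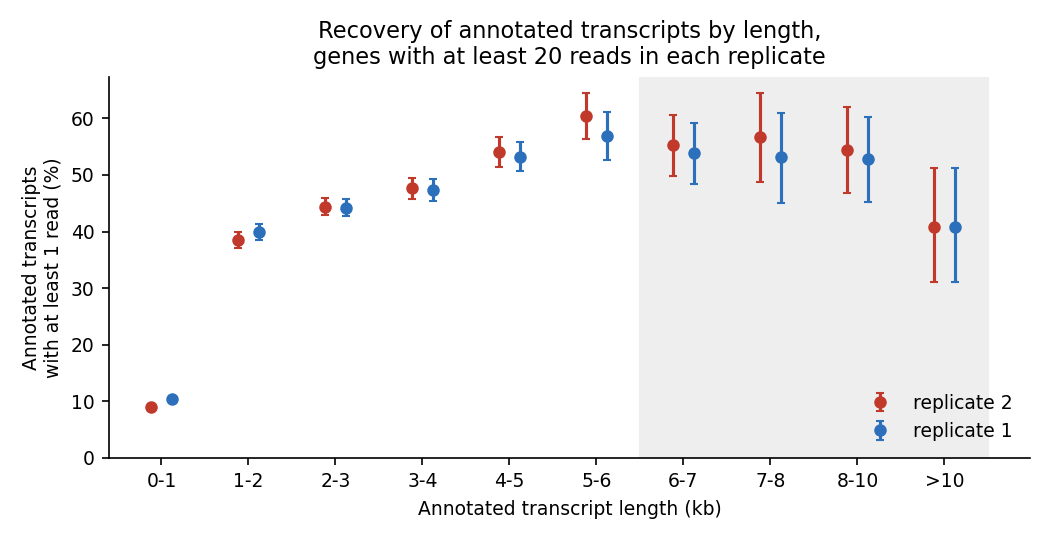
Share of annotated transcripts with at least 1 read (y axis, percent) by annotated length class (x axis, kb) in genes read 20 or more times in both libraries; red points are replicate 2, blue points replicate 1, and bars are 95% Clopper-Pearson intervals. The shaded classes are longer than 6 kb, where recovery stood between 52.8% and 56.8% up to 10 kb and at 40.8% above 10 kb.

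Recovery fell steeply with the stretch between the first and the last intron. The genes read 20 or more times in both libraries have 721 protein-coding transcripts longer than 6000 nt, of which 437 were read. Of 87 with up to 1000 nt of inner exons, 86.2% were read in replicate 2 and 86.2% in replicate 1. At 1000 to 2000 nt the shares were 67.8% and 68.7%, at 3000 to 4000 nt 58.4% and 52.8%, at 5000 to 6000 nt 48.6% and 43.1%, and at 6000 to 8000 nt 42.4% and 40.8%. Of 23 transcripts with more than 10000 nt of inner exons, 2 were read in replicate 2 and 3 in replicate 1. Exon number gave a similar order, with 85.7% and 90.5% of transcripts of 2 to 5 exons read, and 14.8% in each library above 60 exons. Inner length and exon number move together, and their parts in the recovery were not tested apart.

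By structure the members fell into 4 groups. In 650 the 3′ UTR was longer than the coding part. These had a median of 11 exons and 1450.5 nt of inner exons, and 14014 reads in replicate 2 against 12094 in replicate 1. In 516 the coding part was the longer, with a median of 30 exons and 4938 nt of inner exons, and 16969 reads in replicate 2 against 6967 in replicate 1. A further 31 were single exons, with 539 and 632 reads, and 12 were spliced non-coding transcripts, with 240 and 144. Coding-rich members thus gave 53.4% of the members' reads in replicate 2 and 35.1% in replicate 1. In 132 members the inner exons alone exceeded 6000 nt, so that each read must have been at least that long; they gave 1507 reads in replicate 2 and 767 in replicate 1.

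**Figure D2:**
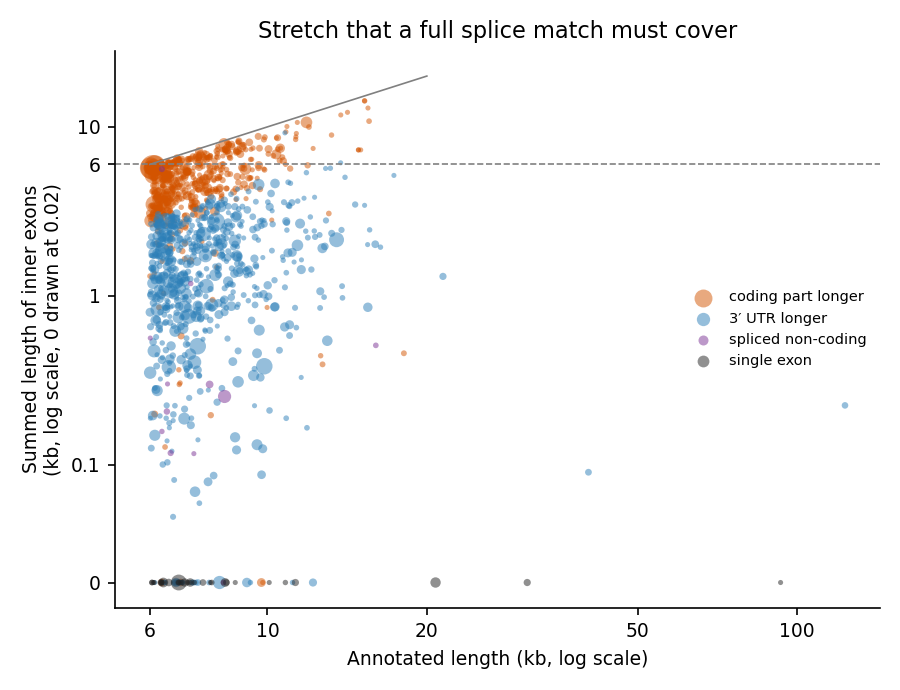
Summed inner exon length (y axis, kb, log scale, with 0 drawn at 0.02) against annotated length (x axis, kb, log scale) for the 1209 members, coloured by structure, with larger points for more reads. Points near the grey diagonal must be read almost whole, and the 132 above the dashed line at 6 kb have more than 6 kb of inner exons.

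The longest stretches read were those of large scaffold and enzyme genes. Cmya5-201, from the gene of myospryn, a large costamere protein of muscle, has 13 exons and 10635 nt of inner exons, most of it in 1 giant exon. It had 125 reads in replicate 2 and 64 in replicate 1, in both libraries more than any other member with over 8000 nt of inner exons. Myo18b-201, from an unconventional myosin gene of muscle, has 44 exons and 7951 nt of inner exons. It had 115 reads in replicate 2 and 48 in replicate 1. The member with the most reads above 6000 nt of inner exons was 2610507B11Rik-201, with 39 exons, 6457 nt of inner exons, and 360 and 214 reads. Flnc-202 (filamin C, an actin cross-linker of the Z-disc; 47 exons) had 47 and 15 reads, and Usp24-201 (a deubiquitinase; 68 exons) 49 and 17. The most exons were in Herc2-202 and Herc2-201, from a giant ubiquitin ligase gene, with 93 exons and 14259 nt of inner exons each. Herc2-202 had 1 read in each library and Herc2-201 had 0 in replicate 2 and 1 in replicate 1. A single read that carried every intron of a 93-exon transcript was therefore the extreme of the set.

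The members with the largest annotated lengths were of another kind. D10Wsu102e-201 is annotated at 123179 nt but has 4 exons and 224 nt of inner exons, and its last exon alone is 122802 nt. It had 5 reads in replicate 2 and 4 in replicate 1, none of which had to be longer than its short inner part. D1Ertd622e-201 (40378 nt, 90 nt of inner exons) had 4 and 7 reads, and Hnrnpr-207 (21452 nt, 1301 nt) had 4 and 12. Ahnak-202, from a giant scaffold gene with nearly the whole coding sequence in 1 last exon of 17498 nt, had 2 reads in each library. The most read Ahnak model was a genomic one of 9542 nt with 18 reads in replicate 2, and a known 6-exon transcript of 830 nt with 30 reads in replicate 1. Annotated length was thus a poor guide to what had been read in these members.

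Among the lists of genes by role, the sarcomere list gave the most reads. In what follows a transcript was called higher or lower in replicate 2 at 2-fold or more with an adjusted p below 0.05 (Fisher's exact test with Benjamini-Hochberg adjustment). Over all known transcripts tested 7.55% were called higher and 2.00% lower, and over all members tested 29.3% and 0.416%. After centring each ratio on the median of its length class, 4.33% of all known transcripts tested were called higher. Centring moved the ratio alone, and the adjusted p stayed that of the uncentred counts. Of 15 genes of the sarcomere and Z-disc list with an annotated transcript longer than 6000 nt, 10 had a member and 7 had one in both libraries. Their 13 members took 9458 reads in replicate 2 and 2549 in replicate 1, or 29.8% of all member reads in replicate 2 and 12.8% in replicate 1. Myosin heavy chains, the motors of the thick filament, gave nearly all of them. Myh1-203, a 40-exon transcript of the type 2X fibre myosin, had 3853 reads in replicate 2 and 929 in replicate 1. Myh7-201, of the slow type 1 fibre myosin, had 2227 and 87, and Myh2-203, of the type 2A fibre myosin, had 943 and 75. All 3 were called higher in replicate 2, with log2 ratios of 2.41, 5.02 and 3.99. Of 9 sarcomere members tested 7 were called higher, and 6 after centring on length. Isoforms of 1 gene were counted apart here, so Myh1-202 and Myh2-201 are among these calls beside Myh1-203 and Myh2-203. Myh4-201, of the type 2B fibre myosin, had 1366 and 1158 reads and a log2 ratio of 0.60, under the 2-fold limit used for a call. Myh3-202, of the embryonic myosin, was read only in replicate 2, 9 times, and Myh8-201, of the neonatal myosin, once in replicate 2. Myh1, Myh2, Myh3, Myh4 and Myh8 lie in 1 cluster of near-identical copies on chromosome 11, so short reads of one can be counted for another, although a full chain of introns fixes the gene. Besides the myosins and the Cmya5 and Flnc members given above, Synpo2-201 (myopodin, a Z-disc protein) had 191 and 141 reads from just 2 exons, and Xirp2-202 had 3 and 0.

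Calcium and membrane excitation followed. Of 20 genes of the list of calcium release, channels and pumps with an annotated transcript longer than 6000 nt, 8 had a member, and the 9 members took 1663 reads in replicate 2 and 1076 in replicate 1. Cacna1s-204, of the voltage sensor that couples the action potential to calcium release, has 44 exons and had 970 and 623 reads. Its log2 ratio of 1.00 just passed the 2-fold limit (adjusted p = 9.79e-41, Fisher's exact test with Benjamini-Hochberg adjustment). The call ended with TMM scaling, which shifts each ratio by -0.17, and after centring on length, where the ratio was 0.08. Scn4a-201, the voltage-gated sodium channel of muscle, had 11 and 7. Piezo1-209, a channel opened by membrane stretch, had 2 in each library.

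Among metabolic members phosphorylase kinase gave the most reads. In 12 of 21 list genes with an annotated transcript longer than 6000 nt there were 17 members, with 811 reads in replicate 2 and 856 in replicate 1. Phka1-202, the muscle alpha subunit of phosphorylase kinase, which turns on glycogen breakdown, had 478 and 621 reads and a log2 ratio of -0.01. Abcc9-204, the sulphonylurea receptor subunit of the ATP-sensitive potassium channel, had 56 and 34, and Acacb-202, the acetyl-CoA carboxylase of the mitochondrial surface, had 32 and 8. Of 11 tested members 3 were called higher in replicate 2, Abcc9-204, Acacb-202 and Slc12a2-201, close to the 29.3% of all members, and 8 had no call. After centring on length Acacb-202 alone kept its call. The list's median log2 ratio was 0.88, against 0.90 over all members tested. Fasn-201 (fatty acid synthase) had 15 and 14 reads with 7386 nt of inner exons.

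Protein turnover and signalling genes had members of moderate counts. The ubiquitin list held 20 members in 16 of 29 genes, with 1001 reads in replicate 2 and 796 in replicate 1. Wwp1-202, a HECT-type ubiquitin ligase, had 478 and 297 reads, Usp13-201, a deubiquitinase, 221 and 256, and Fbxo32-201, the muscle atrophy ligase atrogin-1, 116 and 146. Of 12 tested 5 were called higher in replicate 2 and 7 had no call, beside 29.3% higher over all members and 7.55% over all known transcripts. After centring on length 1 call was left, Usp24-201. In the signalling list 31 members of 30 genes had 466 and 274 reads, led by Prkaa2-201, the alpha 2 catalytic subunit of AMP-activated kinase, with 136 and 78, and by Ppp1r3a-201, which tethers a phosphatase to glycogen, with 129 and 84. The insulin receptor substrates Irs1-201 and Irs2-201 had 39 and 33 reads and 22 and 3 reads. Mtor-202 had 13 and 5. Here 4 of 10 tested members were called higher in replicate 2 and 6 had no call, against the same 29.3% and 7.55%, and 1 call was left after centring, Irs2-201.

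Motor and membrane traffic genes had 31 members in 29 of 49 list genes, with 661 reads in replicate 2 and 288 in replicate 1. Kif5b-201, the kinesin heavy chain that moves cargo along microtubules, had 259 and 119 reads. Arfgef1-201, an exchange factor of Golgi traffic, had 66 and 21. Of 11 tested members 8 were called higher in replicate 2, against 29.3% of all members and 7.55% of all known transcripts, and the list's median log2 ratio was 1.43. After centring on length 3 calls were left, Arfgef1-201 among them, while Kif5b-201 and Myo18b-201 lost theirs. Genes of the costamere and its linkers, which tie the contractile lattice to the membrane, were thin: 11 of 25 genes had 23 members with 188 and 99 reads. Sptb-201 (beta-spectrin) had 66 and 28 reads. Dysf (dysferlin, a membrane repair protein) was split over 6 members, the most of any gene, among which Dysf-204 had 26 and 17 reads and Dysf-202 had 13 and 7. Tln1-201 (talin 1, 57 exons) had 12 and 10.

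Members from regulators of RNA and of transcription had few reads, although some of their genes had many more in other models. Qk had 709 gene reads in replicate 2 and 221 in replicate 1, of which an unannotated 8-exon model of 8504 nt held 361 and 123. Mef2c had 513 and 328 gene reads. Of 30 genes of the RNA list with an annotated transcript longer than 6000 nt, 22 had 28 members with 267 reads in replicate 2 and 173 in replicate 1, led by Larp1-203, a cap-binding repressor of translation (45 and 46), and Qk-204, of the splicing regulator quaking (55 and 24). Of 70 transcription and chromatin genes, 30 had 42 members with 282 and 238 reads. Among them Nfib-202 had 35 and 67, Nr3c1-203, the glucocorticoid receptor, 34 and 23, Mef2c-201, a myogenic transcription factor, 29 and 11, and Ppargc1a-203, a regulator of mitochondrial genes, 20 and 11. Mef2c-201 was the only 1 of these 12 tested members called higher in replicate 2, and 0 were called lower. Its call ended after centring on length. In the RNA list 2 of 10 tested members were called higher and 8 had no call, and 0 calls were left after centring. Both counts stand beside 29.3% higher over all members and 7.55% over all known transcripts. Members from matrix, vessel and immune genes had 255 and 139 reads in 26 transcripts of 21 genes. The largest were Col4a1-201 (69 and 48), Lamc1-201 (56 and 25) and Col4a2-201 (48 and 20), all of basement membrane, and Vwf-203, an endothelial marker, had 12 and 2. Of 7 tested, 3 were called higher in replicate 2, beside 29.3% of all members and 7.55% of all known transcripts. Col4a1-201 had no call, Lamc1-201 and Col4a2-201 lost theirs after centring on length, and Vwf-203 kept it. Fewer cells of a type and less RNA per cell cannot be told apart in bulk tissue.

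Outside these lists lay 966 members of 884 genes, with 16634 reads in replicate 2 and 13279 in replicate 1. Several of the most read carry long 3′ UTRs. Eif4g2-213, a translation initiation factor that works without cap binding, had 735 and 543 reads. Zfand5-205, a zinc finger protein that activates the proteasome, had 403 and 479, and Glo1-206, the detoxifying enzyme glyoxalase 1, had 379 and 483. Slc25a12-206, the aspartate-glutamate carrier of mitochondria, had 412 and 353, Fem1a-201, a substrate receptor of a cullin ligase, 326 and 403, and G3bp1-201, a core protein of stress granules, 347 and 258. Ppp2ca-201 (phosphatase 2A catalytic subunit) had 350 and 234 reads, Pnpla8-201 (a phospholipase) 293 and 266, Ppm1a-201 (a serine/threonine phosphatase) 228 and 287, Fech-208 (ferrochelatase, which completes haem) 236 and 264, and Rab18-205 (a small GTPase) 216 and 278. None of these 11 members passed the 2-fold limit between the libraries. Their log2 ratios lay between -0.00 for Rab18-205 and 0.94 for Ppp2ca-201. Of all 385 members tested outside the lists, 102 were called higher in replicate 2, 1 lower, and 282 had no call. That compares with 29.3% higher over all members and 7.55% over all known transcripts. Among those called higher was 2610507B11Rik-201, with 360 and 214 reads and a log2 ratio of 1.11, whose call ended after centring on length.

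**Figure D3:**
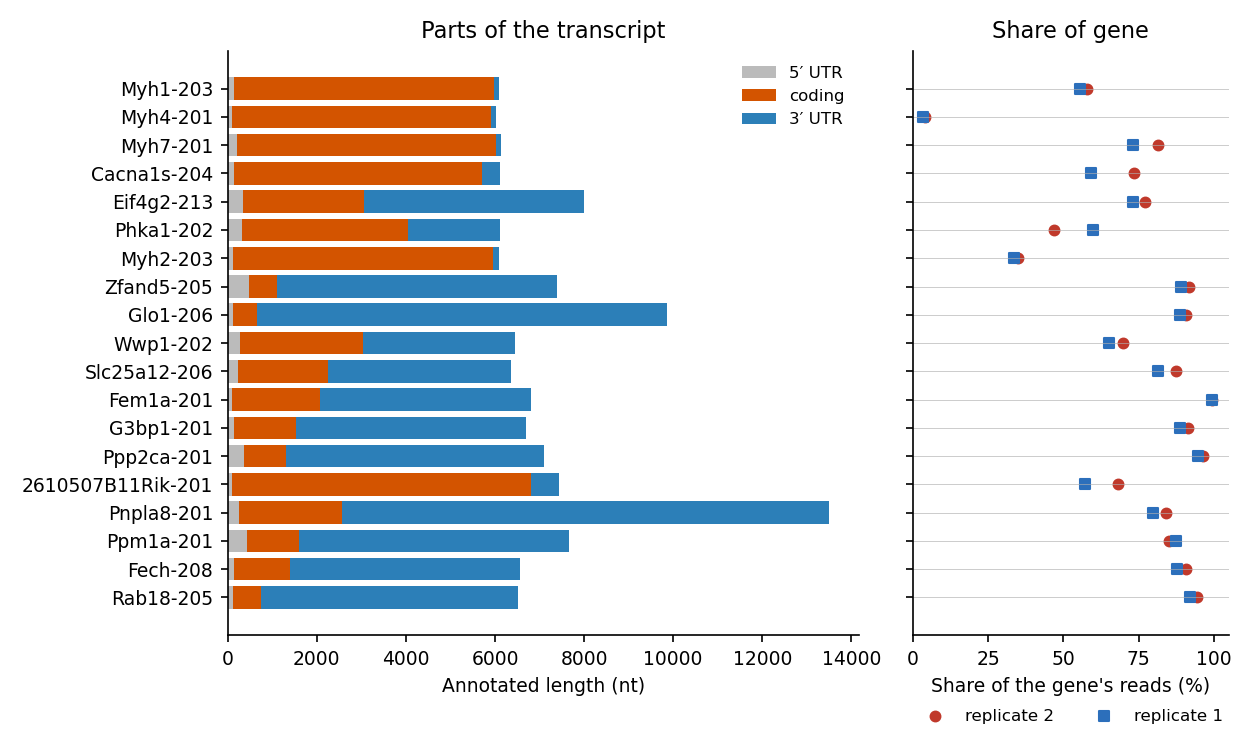
Members among the 20 with the most reads, drawn to scale as 5′ UTR (grey), coding part (orange) and 3′ UTR (blue) in nt on the left, and the share of the gene's reads taken by each on the right in percent (red circles replicate 2, blue squares replicate 1). Myosin and Cacna1s transcripts are nearly all coding, while Zfand5-205, Glo1-206, Pnpla8-201 and Rab18-205 are mostly 3′ UTR; Myh4-201 stands apart with 3.96% and 3.34% of its gene's reads.

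Long non-coding and single-exon members were rare. Neat1-201, the long form of the paraspeckle scaffold, annotated as a single exon of 20771 nt, had 70 reads in replicate 2 and 39 in replicate 1. No minimum stretch is known for a single exon, so these reads need not span the long form. Malat1-201, another nuclear RNA, had 5 and 31, and Kcnq1ot1-201, which lies antisense within Kcnq1, had 1 and 0. Neat1-201 was called higher in replicate 2 (log2 ratio 1.18, adjusted p = 0.000277) and Malat1-201 lower (-2.03, adjusted p = 0.00298; both Fisher's exact test with Benjamini-Hochberg adjustment). After centring on length the ratio of Neat1-201 was 0.68 and its call ended, while Malat1-201 stayed called lower. Use of strand in the counting is not given in the sources used here, so reads of overlapping or antisense genes cannot be told apart. Among other single-exon members were Maf-202, a form of a transcription factor gene, with 14 and 67 reads, Purb-201 with 30 and 20, Epm2aip1-201 with 28 and 13, Rbm15b-201 with 13 and 9, 9330162G02Rik-201 with 10 and 6, and Mars2-201 with 8 in each.

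The share of a gene's reads taken by a member varied widely. Of the members, 447 lay in 367 genes read 20 or more times in both libraries. Their median share was 28.6% in replicate 2 and 25% in replicate 1, and 26.5% for the mean of both, against 37.2% for known transcripts of over 3000 and up to 6000 nt in genes chosen the same way and 19.99% for all known transcripts of up to 6000 nt in them. A member held over 50% of its gene in 149 cases and under 5% in 113. The share went with structure: members with the longer 3′ UTR had a median of 44.8%, and 113 of 240 held over 50%. Members with the longer coding part had a median of 13.7%, and 33 of 196 held over 50%. By inner exon length the median was 70.0% up to 1000 nt, 35.7% at 1000 to 3000 nt, 16.4% at 3000 to 6000 nt and 11.2% above 6000 nt. Above 6000 nt of inner exons, 2 of 64 members held over 50%.

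The highest shares were mostly those of members with few or short inner exons. Fem1a-201 held 99.4% of its gene's 328 reads in replicate 2 and 99.3% of 406 in replicate 1. Purb-201 held 96.8% and 100%, Yae1d1-201 100% and 96.3%, Ccdc127-201 97.3% and 94.7%, and Ppp2ca-201 96.4% and 94.7%. Tmem167-203, Dnajc15-202 and Gtpbp4-204 held between 90.7% and 97.8%, the last with 17 exons and 1704 nt of inner exons. The lowest shares were those of minor forms beside a more read model of the gene. Phka1-203, with 32 exons, held 0.687% in replicate 2 and 0.290% in replicate 1. Phka1-204, with 31 exons, held 0.491% and 0.193%, while the 33-exon Phka1-202 held 46.9% and 60%. Atp5l-204, Qk-201, Kif1b-201, Ptp4a3-205, Mib1-201 and Mprip-201 held at most 2.07%. Of these Atp5l-204 and Ptp4a3-205 have the transcript type retained_intron. In Mprip even the most read model held only 24.4% in replicate 2 and 26.5% in replicate 1. In Kif1b, a kinesin gene with 639 and 291 reads, the most read model was an unannotated combination of known splice sites with 22 exons, at 8178 nt and 304 reads in replicate 2 and at 7181 nt and 158 reads in replicate 1.

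Incomplete splice matches made up more of the reads in the members' genes than in other genes. In the 367 genes, known transcripts held 42.3% of reads in replicate 2 and 36.7% in replicate 1, and incomplete splice matches 29.1% and 32.4%. In the 4290 other genes with as many reads, known transcripts held 62.6% and 65.9% and incomplete matches 7.56% and 8.89%. Where the coding part was the longer, incomplete matches reached 36.0% and 41.5%. Where the 3′ UTR was the longer they were 8.63% and 10.7%. Without Myh1, Myh2, Myh4 and Myh7 the incomplete matches of the members' genes were 20.2% and 21.3%. Cmya5 shows the pattern in 1 gene: of its 738 reads in replicate 2 and 560 in replicate 1, 79.1% and 76.2% were incomplete matches, and the most read of these had 12 exons, at 3185 nt and 501 reads in replicate 2 and at 2908 nt and 371 reads in replicate 1.

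The most read form of Myh4 is not in the annotation. Myh4-201 held 1366 of 34487 gene reads in replicate 2 (3.96%) and 1158 of 34657 in replicate 1 (3.34%). The most read Myh4 model was unannotated, with 40 exons, 6340 nt, 12155 reads in replicate 2 and 11923 in replicate 1. It carries all 38 introns of Myh4-201 and 1 more, chr11:67237834-67238030, that joins an upstream exon, chr11:67237508-67237833, to an exon, chr11:67238031-67238079, that lies within the annotated first exon. In Myh1 the 40-exon form with an upstream first exon is annotated, as Myh1-203, and held 57.8% of gene reads in replicate 2 and 55.4% in replicate 1. The RefSeq promoters of both genes (GRCm38.p6) are shown because the upstream exon of Myh4 contains the RefSeq start of that gene, at position 67237812. Capitals mark the motif TATAAA in the 50 nt before the RefSeq start and the first bases, GT, of the intron after the upstream exon. A further TATAAA near the left end of the Myh4 sequence is left in lower case.
Myh4 promoter, chr11:67237562-67237861, plus strand: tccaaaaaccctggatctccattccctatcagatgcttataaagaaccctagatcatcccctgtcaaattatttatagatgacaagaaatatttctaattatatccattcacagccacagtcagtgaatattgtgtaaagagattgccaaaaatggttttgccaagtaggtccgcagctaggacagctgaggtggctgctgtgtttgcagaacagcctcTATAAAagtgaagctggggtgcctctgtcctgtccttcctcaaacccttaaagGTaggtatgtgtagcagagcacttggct
Myh1 promoter, chr11:67199852-67200151, plus strand: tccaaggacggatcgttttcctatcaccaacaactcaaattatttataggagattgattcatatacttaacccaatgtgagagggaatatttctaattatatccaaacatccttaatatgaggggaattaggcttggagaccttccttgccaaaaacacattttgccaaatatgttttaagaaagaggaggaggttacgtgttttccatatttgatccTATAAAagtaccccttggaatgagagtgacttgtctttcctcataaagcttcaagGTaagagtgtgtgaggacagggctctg
TATAAA began 31 nt before the RefSeq start of Myh4 and 32 nt before that of Myh1, at 67200102. The first exon starts upstream of the motif, at 67237508 in the Myh4 model and at 67200052 in Myh1-203. In both genes the motif thus lies inside that exon. On the gene's strand, 863 of 32851 RefSeq promoters (2.63%) have TATAAA in the 50 nt before the start. A match is a description of the letters only. The deposited start is 1 position per model, and single reads may start elsewhere. Of all 1209 members, 946 had a RefSeq promoter entry by symbol, and the annotated 5′ end of 636 lay within 50 nt of a RefSeq start.

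Where reads of long 3′ UTRs ended could be followed only through unannotated models, whose own coordinates are deposited. Each model has a single deposited end, which was taken for all its reads, and a read may end elsewhere. For 412 of 1178 spliced members, models with the same last junction had at least 5 reads in each library. With a last exon of up to 500 nt a median of 100% of those reads came from models that reached within 100 nt of the annotated end or beyond, in both libraries. At 2000 to 4000 nt the median was 74.4% in replicate 2 and 76.9% in replicate 1, at 4000 to 6000 nt 24.8% and 9.09%, and above 6000 nt 0% in each. None reached the annotated end in 28 of the 43 members with a last exon above 6000 nt. If the members' own reads ended at the most used of these ends, 123 of the 412 would be at most 6000 nt long, and these hold 8100 member reads in replicate 2 and 7252 in replicate 1. This is arithmetic on the annotated lengths, neither an upper nor a lower bound, and no measurement of the members' own reads.

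Single members show how far the ends lay apart. Glo1-206 has a last exon of 9291 nt, and the other models with its last junction, with 7 reads in replicate 2 and 11 in replicate 1, most often ended 1361 nt after that junction. None reached the annotated end. For Eif4g2-213, with a last exon of 5008 nt, 0 of 207 and 0 of 184 reads came from models that reached the end. Over both libraries 87.5% came from models that ended near 2200 nt. Wwp1-202 differed: its other models most often ended 6411 nt after the last junction, beyond the annotated 3511 nt. For the myosins, Cacna1s-204 and 2610507B11Rik-201, at least 98.5% of such reads came from models that reached the annotated position.

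**Figure D4:**
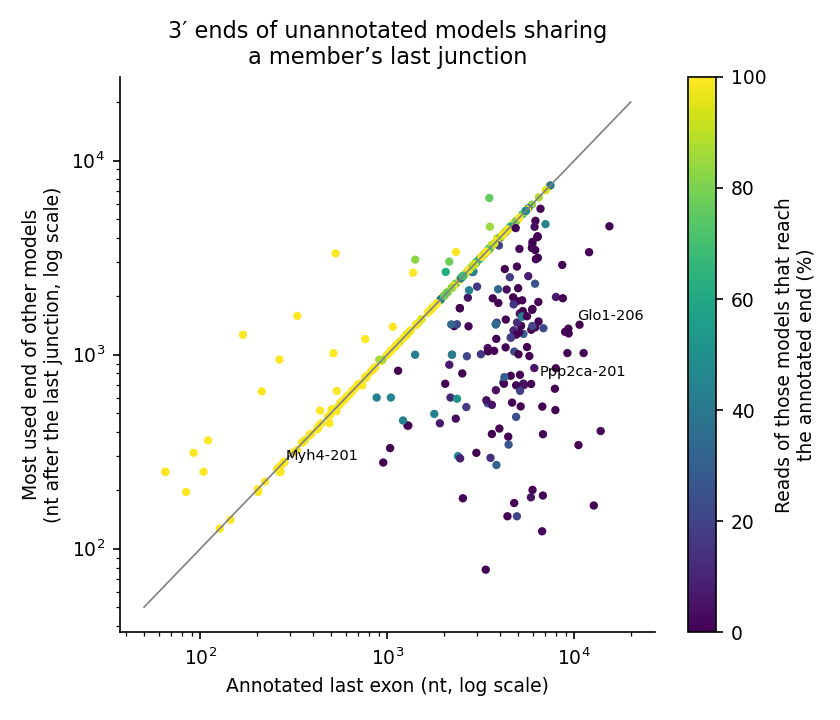
For 412 members, the most used 3′ end of unannotated models with the same last junction (y axis, nt after that junction, log scale) against the annotated last exon (x axis, nt, log scale); colour gives the percent of those reads from models that reach the annotated end. Points on the grey line end where annotated, as for Myh4-201, and dark points far below it, such as Glo1-206 and Ppp2ca-201, end upstream.

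AATAAA or ATTAAA lay in the last 40 nt of 80.9% of the 1209 annotated member ends, against 64.6% of the ends of known transcripts of up to 6000 nt. The sets were not matched for transcript type, and 1177 of the members are protein_coding. Models with an annotated 3′ end flagged as unfinished were not left out of either set. The gap is therefore not a measure of length alone. In 156 of the members the most used other end lay more than 100 nt upstream and could be read from the transcript sequence. There the hexamers lay before 69.9% of annotated ends, before 59.6% of the upstream ends, and in 7.05% of windows midway between both. Annotated and upstream ends therefore both carried the signal more often than the sequence between them. The windows printed above for Glo1-206 and Ppp2ca-201 are examples.

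Replicate 2 held higher shares of most members than replicate 1. The comparison took in 8260 known transcripts with a sum of at least 10 reads, 481 of them members. Of these, 141 were higher in replicate 2 by at least 2-fold at an adjusted p below 0.05 (Fisher's exact test with Benjamini-Hochberg adjustment over all 8260), 2 were lower and 338 had no call. Over all known transcripts tested 9.55% were called, 7.55% higher and 2.00% lower, so the members' 29.3% stood above the background for higher calls, and their 0.416% below it for lower ones. The test compares these libraries, not conditions. The median log2 ratio, on the log2(CPM + 1) scale that understates the ratio of low transcripts, was 0.90 for members and 0.17 for all known transcripts tested. TMM scaling shifts every ratio by -0.17 and gave 99 higher and 2 lower members; over all transcripts it gave 409 higher and 288 lower, against 624 and 165 on total reads.

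The higher ratio was shared by transcripts of like length. The median log2 ratio was -0.51 up to 1000 nt, -0.11 at 1000 to 2000 nt, 0.17 at 2000 to 3000 nt, 0.42 at 3000 to 4000 nt, 0.61 at 4000 to 5000 nt and 0.73 at 5000 to 6000 nt. Above the limit it was 0.92 at 6000 to 7000 nt, 0.93 at 7000 to 8000 nt, 0.90 at 8000 to 10000 nt and 0.50 for 39 transcripts above 10000 nt. Once each ratio was centred on the median of its length class, 53 members were called higher and 2 lower, where 5.73% of all known transcripts tested were called, 4.33% higher and 1.39% lower. These calls kept the adjusted p of the uncentred test. A long transcript with like shares in both libraries could therefore not be called lower. Nfib-202, with a centred ratio of -1.45, had no call. Within the members the ratio also went with structure. The median was 1.25 for 189 coding-rich members, with 77 called higher, and 0.63 for 278 members with the longer 3′ UTR, with 61 called higher. After centring these medians were 0.33 and -0.24. By inner exon length it was 0.36 up to 1000 nt, 0.69 at 1000 to 3000 nt, 1.25 at 3000 to 6000 nt and 1.26 above 6000 nt. Between 6000 and 8000 nt of annotated length the same classes of inner length gave 0.25, 0.79, 1.25 and 1.05. Without the genes named Myh, the median of 179 coding-rich members was 1.22, with 69 called higher. Transcript length and the myosin mix both moved with the replicate. With 2 libraries of 1 group, the cause of either was not tested.

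The myosins of slow, 2A and 2X fibres had high ratios. Myh7-201 (5.02), Myh2-201 (365 reads in replicate 2 and 16 in replicate 1; 4.75), Myh2-203 (3.99), Myh1-202 (2.71) and Myh1-203 (2.41) kept their calls after centring on length. Of other genes, Myh10-203, a non-muscle myosin, had 22 reads in replicate 2. It had 0 in replicate 1. Set against the floor of 3 reads there, its share was 9.43-fold higher in replicate 2. That value leaves out the counting error of the 22 reads and is no lower bound. Tmem245-201 had 22 and 2 reads (log2 ratio 3.09), Tmem131-201 had 20 and 2 (2.96), and Irs2-201 had 22 and 3 (2.72). These too kept their calls after centring. The only members called lower, Malat1-201 and Maf-202 (-1.81), are single exons.

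**Figure D5:**
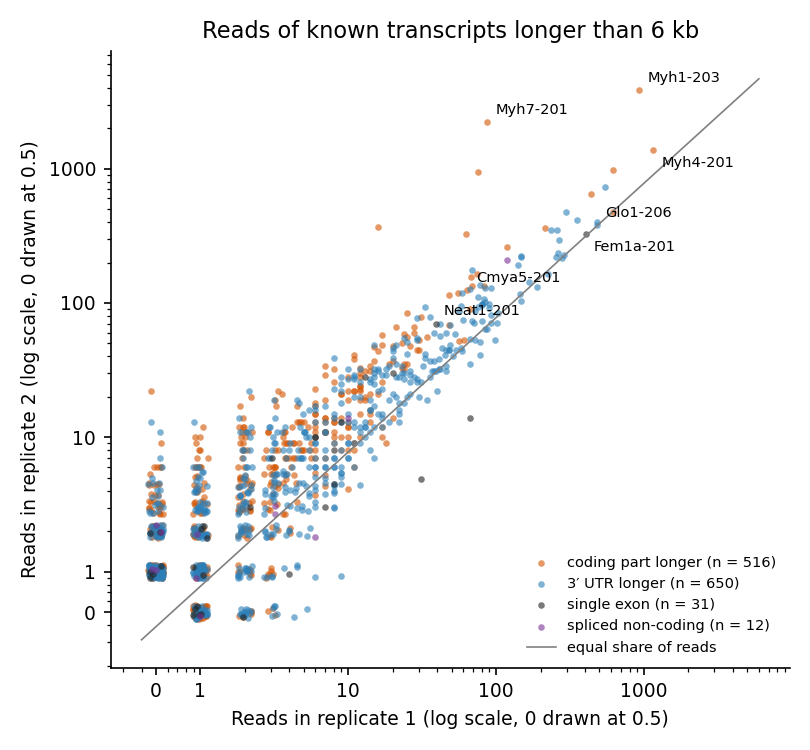
Reads of each of the 1209 members in replicate 2 (y axis) against replicate 1 (x axis), both on log scales with 0 drawn at 0.5 and counts of up to 5 spread slightly at random; colours give the structure. The grey line marks equal shares of both libraries. Myh7-201 (2227 and 87 reads) lies far above it, most members above it by less, and Fem1a-201 (326 and 403) close to it.

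Some of the largest muscle genes had no member at all. Of 433 genes that have a protein-coding transcript longer than 6000 nt and were read 20 or more times in both libraries, 333 had a member in both libraries, 26 in 1 and 74 in neither. In 21 of those 74 even the shortest such transcript has more than 6000 nt of inner exons, as in 56 of all 433. Ryr1, the calcium release channel of the sarcoplasmic reticulum, had 1041 gene reads in replicate 2 and 1175 in replicate 1, of which 92.9% and 94.5% were incomplete matches and 0 were known transcripts. The longest of its unannotated models nonetheless reached 101 exons in replicate 2 and 96 in replicate 1, of 109 annotated. Ttn (titin, the molecular spring of the sarcomere) had 603 and 405, and Neb (nebulin, the ruler of the thin filament) 343 and 245. In Neb, models of 127 exons in replicate 2 and 153 in replicate 1 were present, of 157 annotated. Speg, Tacc2, Tln2 and Myo18a were among the others with at most 2 reads of a known transcript in either library. The most read Myo18a model was unannotated, with 46 exons, 8715 nt, and 85 and 42 reads, against at most 42 exons and 7513 nt annotated. That of Tln2 was unannotated too, with 59 exons, at 12234 nt in replicate 2 and 12214 nt in replicate 1, with 15 reads in each. In Speg it was an incomplete match of 7 exons in replicate 2. A missing member was thus not always a lack of long models.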

How the data were processed

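Long-read RNA sequencing of gastrocnemius muscle gave 2 libraries of 1 group. The deposited values are raw read counts per transcript model. The authors counted them from a filtered alignment to mm10 with GENCODE M21, per the deposited README files; TALON named the models, per the deposited annotations. Aligner, filters, platform and use of strand: not given in the sources used here. Models with 0 reads are not listed. The deposited tables also give the authors' exon number and length of each model.

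Members and gene lists were chosen with earlier results of these data known. Read depth was 1173233 in replicate 2 and 1509380 in replicate 1, spike-in reads included. Exon structure, coding sequence and untranslated regions came from GENCODE M21. A member's gene share was its reads over all reads of the gene, for genes read 20 or more times in both libraries. Each known transcript with at least 10 reads over both libraries was compared by Fisher's exact test, two-sided, of its reads against the other reads of each library (scipy 1.17.1), with Benjamini-Hochberg adjustment over 8260 transcripts; a call needed 2-fold or more and adjusted p below 0.05, with the ratio on log2(CPM + 1). With 1 group, p-values measure counting error between 2 libraries. Members were described by role, naming those with the most reads, the highest and lowest ratios and gene shares, and the most exons; other names were chosen after their values were seen. Genome positions are on mm10. The test was tested on simulated data. Alternatives included TMM (edgeR 4.0.16), DESeq2 1.42.0 size factors, other read minimums, length limits and fold limits, and ratios centred on the median of each length class. For centred ratios the adjusted p of the uncentred test was kept. Ranges for shares are Clopper-Pearson 95% intervals. Some members and genes that the naming rule covers are not reported here.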

Additional observations from a re-analysis of the deposited data

How the results depend on the processing

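The number of members was 2104 with a limit of 5000 nt, 380 with 8000 nt and 675 with at least 5 reads, against 1209. Their mean read share was 3.40% of known reads alone, 3.74% above 5000 nt and 0.371% above 8000 nt, against 2.01%, and 1.31% to 2.71% with 1 library left out. The share read in both libraries was 85.8% at 2 or more reads, 97.5% at 5 or more and 99.4% at 10 or more, against 69.5%. The median gene share was 90.9% of known reads alone, 29.4% without genomic reads and 30.3% above 5000 nt, against 26.5%, and 25% to 28.6% with 1 library left out. The median exon number was 15 above 5000 nt, 18 above 8000 nt and 16 at 10 or more reads, against 17. Members called higher in replicate 2 numbered 47 at 4-fold, 53 after centring on length, 222 above 5000 nt and 40 above 8000 nt, against 141. With 4-fold 1 was called lower and above 8000 nt 0, against 2. The median log2 ratio was 0.74 with TMM, 0.75 with DESeq2 size factors, 0.00 after centring, which sets it there by construction, and 0.65 with a pseudocount of 5, against 0.90. The causes of the other shifts were not tested. No paired analysis was possible because the libraries form 1 group. Most members have fewer than 10 reads, so their absence from a library was not detectable as a difference at this depth.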
